A study of Mus musculus with 14 samples.

Results

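The BCL2 family genes examined here are 10 of the 24062 genes in a count table of bulk RNA-seq from mouse plexiform neurofibromas (PNs), benign nerve tumors that form when Schwann cells (SCs) lose the tumor suppressor *Nf1*. They were chosen by symbol: the survival genes *Bcl2*, *Bcl2l1*, *Mcl1*, *Bcl2a1a*, *Bcl2a1b*, and *Bcl2a1d*, the pore-forming death genes *Bax* and *Bak1*, and the BH3-only death genes *Bcl2l11* and *Bid*. All 10 had a row in the table. The choice was made with the difference between fast- and slow-growing PNs already known, in which *Bcl2a1b* stood out, so the values of the members in that comparison are given as a description.

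The 14 libraries, each taken as a separate mouse, came from mice of mixed C57BL/6, I-129, and FVBN background that had received no drug. Controls were dorsal root ganglia (DRGs) with their nerves (n = 3, libraries DRG3, DRG4, and DRG5) from mice labelled *Nf1* fl/fl, which carry the floxed allele without a Cre. PNs (n = 11) came from DhhCre;Nf1fl/fl mice, in which a Dhh-driven Cre deletes *Nf1* in the SC lineage only, so each PN library mixes mutant SCs with unrecombined nerve, immune, and stromal cells. The study's methods give the age as 9 months, whereas a legend gives 7 months for bulk PNs, and the methods call a PN slow growing if its volume on MRI changed by less than 5 mm3 between 7 and 9 months (n = 5, libraries 1079, 1198A, 1202, 1203, and 1206) and fast growing if it rose by more than 35 mm3 (n = 6, libraries 1053, 1071, 1179, 1191, 1214, and 1216). Sex is not given per library in the sources used here.

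Proteins of the BCL2 family decide whether the outer mitochondrial membrane stays closed. Survival members (BCL2, BCL-XL from *Bcl2l1*, MCL1, and A1 from the Bcl2a1 genes) bind and hold back BAX and BAK, which otherwise oligomerize into pores that release cytochrome c and start the caspase cascade. BH3-only members such as BIM (from *Bcl2l11*) and BID relay stress and death receptor signals by occupying the survival proteins or by activating BAX and BAK. In nerve, BCL2 and BCL-XL are known from neurons and glia, whereas A1 is best known from blood cells.

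The mouse genome carries several nearly identical A1 genes, and the 3 measured here lie on chromosome 9 of mm10. *Bcl2a1d* lies at chr9:88723285-88731914 on the minus strand, *Bcl2a1a* at chr9:88956900-88962419 and *Bcl2a1b* at chr9:89199209-89207827 on the plus strand, each with 2 exons. Their coding sequences have 516 bases each, and the copies differ at 12 positions: *Bcl2a1a* and *Bcl2a1b* at 11 (97.87% identity), *Bcl2a1a* and *Bcl2a1d* at 7 (98.64%), and *Bcl2a1b* and *Bcl2a1d* at 6 (98.84%). The first 90 coding bases hold 6 of the 12 positions and are shown because only reads that cover such bases can tell the copies apart. They are from the GENCODE annotation of mm10, with the differing positions in capitals.
Bcl2a1a: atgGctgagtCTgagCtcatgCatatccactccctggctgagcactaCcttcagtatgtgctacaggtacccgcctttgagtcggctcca
Bcl2a1b: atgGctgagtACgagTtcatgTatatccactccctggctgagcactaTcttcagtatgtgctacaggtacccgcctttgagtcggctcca
Bcl2a1d: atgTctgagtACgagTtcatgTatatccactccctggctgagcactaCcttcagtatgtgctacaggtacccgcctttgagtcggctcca
Of all 50-base stretches in the annotated transcripts, 67.7% for *Bcl2a1a*, 57.6% for *Bcl2a1b*, and 79.5% for *Bcl2a1d* also occur in another copy. How the counting treated reads that fit several copies is not given in the sources used here, so the 3 counts are uncertain as separate values, and their sum is reported beside them. The exons of *Bcl2a1b* also overlap those of *Gm29094* on the same strand, which has no row in the table.

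The bases just before each annotated start are close to identical as well. They are shown because the mean levels of the 3 copies were all lowest in slow-growing PNs. For *Bcl2a1a* the slow-growing range, 0.0751 to 0.386 CPM, lay inside the fast-growing range, 0 to 1.32 CPM. They are the part of the RefSeq promoter entry (GRCm38.p6) upstream of the gene, on the gene's own strand, at chr9:88956670-88956899 for *Bcl2a1a*, chr9:89199023-89199208 for *Bcl2a1b*, and chr9:88731915-88732100 for *Bcl2a1d*. The capitals mark GAGGAAGT, the letters of the motif bound by PU.1, a transcription factor of myeloid and B cells.
Bcl2a1a: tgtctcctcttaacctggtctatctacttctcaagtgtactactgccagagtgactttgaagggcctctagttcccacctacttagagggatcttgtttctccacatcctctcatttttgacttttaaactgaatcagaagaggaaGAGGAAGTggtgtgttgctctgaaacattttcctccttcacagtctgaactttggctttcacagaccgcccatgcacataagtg
Bcl2a1b: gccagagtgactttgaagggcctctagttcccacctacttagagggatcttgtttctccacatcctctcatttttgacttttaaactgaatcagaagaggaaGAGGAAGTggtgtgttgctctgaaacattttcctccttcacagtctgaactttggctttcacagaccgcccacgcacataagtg
Bcl2a1d: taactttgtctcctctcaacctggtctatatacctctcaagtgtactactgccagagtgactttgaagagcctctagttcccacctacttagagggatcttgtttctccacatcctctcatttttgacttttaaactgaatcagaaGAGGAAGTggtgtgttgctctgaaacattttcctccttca
GAGGAAGT was searched on both strands of the 300-base promoter entries, and each of the 3 A1 entries held it once. Where they align, these 3 entries are 97.96% to 99.22% identical in pairs, so their matches are not independent. Of 32851 mouse promoter entries, 3.2% held it, and among the other 7 members only an entry of *Bak1* did. The kappaB motif, bound by NF-kappaB, was searched in the same way and was in 0 of the 3 A1 entries and in 1 entry of *Bcl2l1*, while 8.46% of all entries held it. A match is a description of these letters and not of binding.

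A1 reads were few, and most came from fast-growing PNs. The 3 copies together had 4 reads in DRG3, 102 in DRG4, and 56 in DRG5. Slow-growing PNs had 7 in 1079, 10 in 1198A, 2 in 1202, 4 in 1203, and 10 in 1206, and fast-growing PNs had between 39 (1071) and 205 (1179). Each slow-growing PN therefore had at most 10 A1 reads, each fast-growing PN had at least 39, and control DRG3 resembled the slow-growing PNs while DRG4 and DRG5 lay among the fast-growing PNs.

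**Figure D1:**
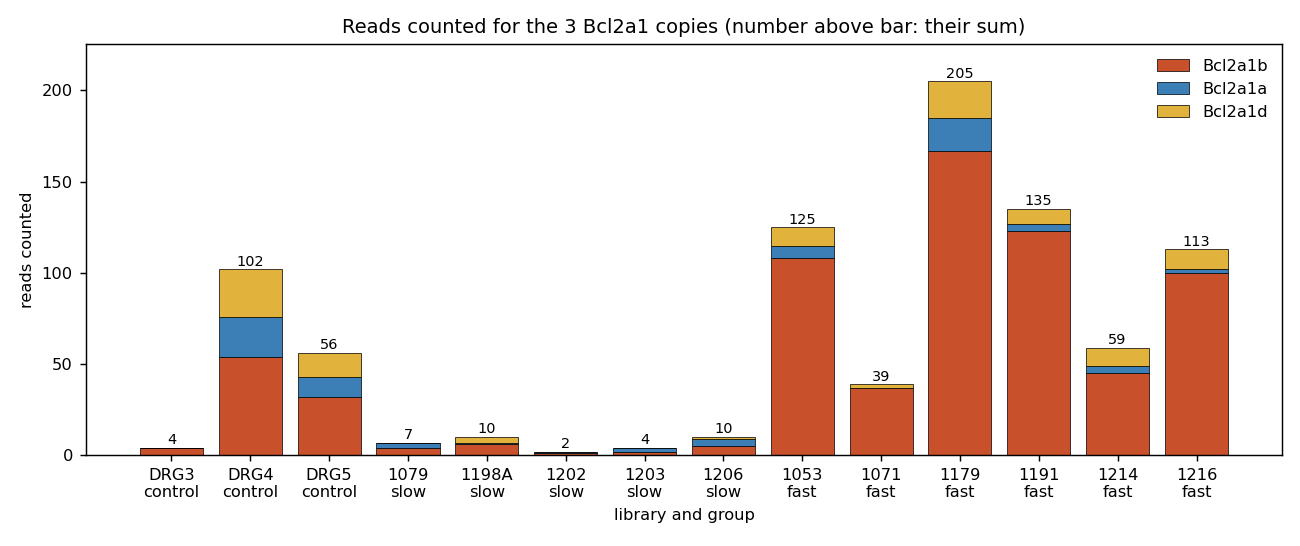
Reads counted per library (y axis) for *Bcl2a1b*, *Bcl2a1a*, and *Bcl2a1d*, stacked, in 3 control, 5 slow-growing, and 6 fast-growing libraries (x axis). Slow-growing PNs hold 2 to 10 reads in all and fast-growing PNs 39 to 205, most of them assigned to *Bcl2a1b*.

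Scaled by library size with TMM factors to CPM (counts scaled to a common library size), the summed A1 level was 5.23 ± 4.58 CPM in controls (SD, n = 3), 7.79 ± 4.397 CPM in fast-growing PNs (n = 6), and only 0.563 ± 0.302 CPM in slow-growing PNs (n = 5). Fitted as a single feature among all genes, the sum was lower in slow-growing PNs than in controls by a log2 fold change of -3.23 (SE 0.85). This value is a description without a test, since the low A1 levels of the same slow-growing libraries entered the choice of genes, and it rests on DRG4 and DRG5. The groups overlapped, since DRG3 lay within the slow-growing range. Between fast-growing PNs and controls the sum differed by 0.52 (SE 0.79, edgeR quasi-likelihood test, Benjamini-Hochberg adjusted p = 0.667), with overlapping groups. The A1 levels of the fast-growing libraries also entered the choice of genes. No conclusion is therefore drawn from this p or from those of the single A1 copies below. Between fast- and slow-growing PNs the sum differed by 3.76 on the log2 scale (SE 0.52).

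*Bcl2a1b* carried most of the A1 reads in fast-growing PNs. Its level was 0.345, 4.99, and 3.38 CPM in DRG3, DRG4, and DRG5. In slow-growing PNs it was 0.304 CPM in 1079, 0.451 in 1198A, 0.102 in 1202, 0.182 in 1203, and 0.482 in 1206. In fast-growing PNs it ran from 2.52 to 12.2 CPM with a median of 6.34, so every fast-growing PN lay above every slow-growing PN. The slow-growing values rest on 1 to 6 reads, and 3 reads correspond to between 0.225 and 0.305 CPM in these libraries. *Bcl2a1b* was higher in fast- than in slow-growing PNs by 4.39 on the log2 scale (SE 0.53). It differed from controls by 1.15 in fast-growing PNs (SE 0.74, edgeR adjusted p = 0.278) and by 0.39 over all PNs (SE 1.19, adjusted p = 0.839), with overlapping groups in both.

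*Bcl2a1a* and *Bcl2a1d* followed another order, with the highest levels in DRG4. *Bcl2a1a* was 0, 2.03, and 1.16 CPM in DRG3, DRG4, and DRG5, between 0.0751 and 0.386 CPM in slow-growing PNs, and between 0 and 1.32 CPM with a median of 0.299 in fast-growing PNs. *Bcl2a1d* was 0, 2.40, and 1.37 CPM in the controls, 0 in slow-growing 1079, 1202, and 1203, 0.225 CPM in 1198A, 0.0964 CPM in 1206, and between 0.136 and 1.46 CPM with a median of 0.672 in fast-growing PNs. Neither was called in fast-growing PNs against controls, where edgeR gave log2 fold changes of -1.43 for *Bcl2a1a* (SE 1.1, adjusted p = 0.363) and -0.89 for *Bcl2a1d* (SE 0.91, adjusted p = 0.504).

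The share of A1 reads assigned to *Bcl2a1b* differed between libraries. It was 52.9% in DRG4 (95% Wilson interval 43.3% to 62.3%) and 57.1% in DRG5 (44.1% to 69.2%). In fast-growing PNs it ran from 76.3% in 1214 (64.0% to 85.3%) to 94.9% in 1071 (83.1% to 98.6%). All 6 fast-growing PNs lay above DRG4 and DRG5 in this share, although the interval of 1214 overlaps that of DRG5, and DRG3, with 4 reads, all of them *Bcl2a1b*, had an interval from 51.0% to 100%. In slow-growing PNs the share was between 50% and 60% on 2 to 10 reads each, too few to place them. Pooled over libraries it was 55.6% of 162 reads in controls, 54.5% of 33 reads in slow-growing PNs, and 85.8% of 676 reads in fast-growing PNs. The intervals cover counting error only, since amplified reads are not independent molecules, and do not cover how reads that fit several copies were assigned.

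Some immune marker lists were, like A1, lowest in slow-growing PNs, and others were not. The summed level of 6 leukocyte markers (*Ptprc*, *Itgam*, *Tyrobp*, *Fcer1g*, *Laptm5*, and *Coro1a*) was 124 CPM in DRG3, 1033 in DRG4, and 854 in DRG5, 88.8 to 359 CPM in slow-growing PNs, and 242 to 851 CPM in fast-growing PNs. The sum of 11 macrophage markers ran from 197 to 653 CPM in controls, from 64.1 to 535 in slow-growing PNs, and from 294 to 875 in fast-growing PNs. The sum of 9 markers of antigen-presenting cells was 338 CPM in DRG3, 3105 in DRG4, and 2447 in DRG5, 191 to 1896 CPM in slow-growing PNs, and 1194 to 6107 CPM in fast-growing PNs. B cell markers, 7 genes, summed to 21.4 CPM in DRG3 and to 506 and 804 in DRG4 and DRG5, against 5.11 to 69.4 CPM in slow-growing PNs and 2.66 to 285 CPM in fast-growing PNs, where 1179 was highest. Their mean was higher in fast- (54.2 CPM) than in slow-growing PNs (27.5 CPM), as in A1. Their median was lower in fast- (4.64 CPM) than in slow-growing PNs (15.7 CPM), the opposite of A1. Median T and NK cell markers (10 genes) were likewise 25.3 CPM in slow- and 15.8 CPM in fast-growing PNs, and mast cell markers (8 genes) 92.8 and 71.6 CPM. Neutrophil markers (11 genes) had medians of 119.95 CPM in slow- and 148 CPM in fast-growing PNs, with overlapping ranges. No marker of these lists was at 0 in every library. In controls, T and NK cell markers were 7.60 CPM in DRG3, 384 in DRG4, and 226 in DRG5, and mast cell markers 113, 142, and 146 CPM. Neutrophil markers had another order, at 282 CPM in DRG3, 123 in DRG4, and 1770 in DRG5. DRG3 was thus low in leukocyte, antigen-presenting, B cell, and T and NK cell markers as it was in A1, but not lowest in neutrophil markers. Of the slow-growing PNs, 1198A had the most macrophage and antigen-presenting markers. The part of these cells in the A1 values was not tested, and in whole tissue fewer cells of a type and less RNA per cell cannot be told apart.

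**Figure D2:**
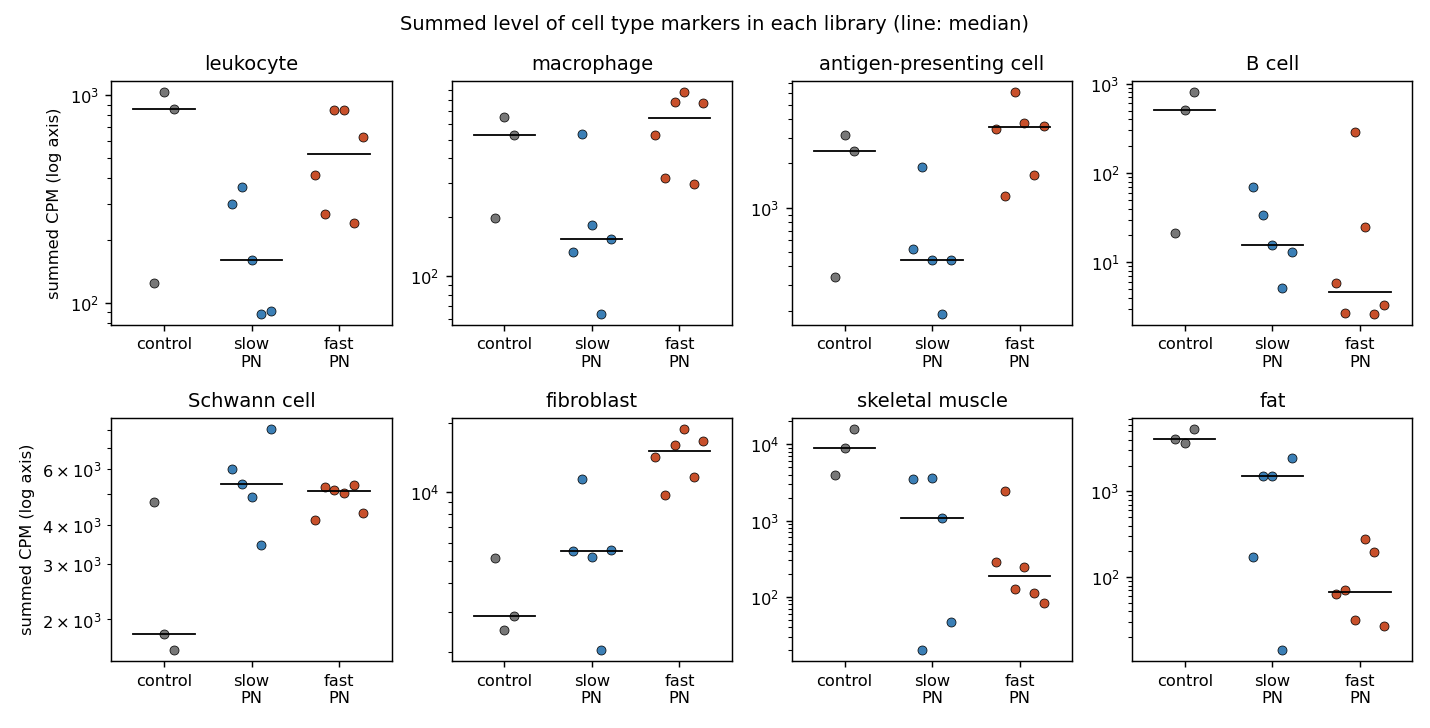
Summed CPM (log axis) of cell type marker genes in each library (points), with the group median (line), for 8 lists in controls, slow-growing PNs, and fast-growing PNs. Control DRG3 lies low in leukocyte, antigen-presenting, and B cell markers, and skeletal muscle and fat markers are high in all 3 controls.

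*Bcl2* was the member that separated PNs from controls most clearly. Its level was 109.9 CPM in DRG3, 94.4 in DRG4, and 71.0 in DRG5. Slow-growing PNs had 162 CPM in 1079, 131 in 1198A, 148 in 1202, 124 in 1203, and 172 in 1206, and fast-growing PNs had between 166 and 190 CPM with a median of 168. All 11 PNs lay above all 3 controls, and the fast-growing PNs lay close to each other. *Bcl2* was higher in PNs by a log2 fold change of 0.81 (SE 0.16, edgeR adjusted p = 0.00182) and in fast-growing PNs by 0.86 (SE 0.14, adjusted p = 0.00140). In slow-growing PNs the difference from controls was 0.64 (SE 0.20, edgeR adjusted p = 0.0723), which did not pass the threshold of 0.05 although no slow-growing PN overlapped a control. Of 8 edgeR fits that left out a library, it passed in 1, that without 1203 (0.73, adjusted p = 0.0358). The highest adjusted p of these fits was 0.283. Fast- and slow-growing PNs differed by 0.23 (SE 0.11), with overlapping groups.

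Several SC genes also rose in PNs. Of 7 SC markers, 4 (*Sox10*, *Erbb3*, *Cdh19*, and *Scn7a*) rose in PNs over controls, where 12.9% of all genes tested did, by 1.29 for *Sox10* to 2.7 for *Cdh19* on the log2 scale, while *S100b*, *Mbp*, and *Egr2* did not pass the test. The summed SC markers were 4735 CPM in DRG3, the control with most *Bcl2*, 1797 in DRG4, and 1596 in DRG5, and ran from 3439 to 8067 CPM in slow-growing PNs and from 4148 to 5356 CPM in fast-growing PNs. Over the 14 libraries and 16273 genes, genes whose standardized log2 CPM lay close to that of *Bcl2* were *Kcna1*, a potassium channel of myelinated axons, and *Gpm6b*, a membrane protein of neurons and glia, at mean absolute differences of 0.23 and 0.24 SD. The part of the SC content in the level of *Bcl2* was not tested. When scores of muscle and fat markers entered the fit as covariates, *Bcl2* stayed higher in PNs by 0.55 but was not called (edgeR adjusted p = 0.329), and in that fit 273 of 16283 genes were called in place of 4283. In fast-growing PNs its value with these covariates was 0.43 (edgeR adjusted p = 0.951), and 0 of 16037 genes were called.

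*Bcl2l1*, which encodes BCL-XL, was higher in fast-growing PNs than in controls. It was 22.8, 16.7, and 15.5 CPM in DRG3, DRG4, and DRG5 and between 26.8 and 57.5 CPM, with a median of 34.9, in fast-growing PNs, all above the controls. The log2 fold change was 1.04 (SE 0.25, edgeR adjusted p = 0.0122). This call was lost without DRG4 (adjusted p = 0.0548) or DRG5 (0.0502), and with muscle and fat covariates the edgeR value turned to -0.73 (adjusted p = 0.940). Slow-growing PNs had 23.9 CPM in 1079, 79.3 in 1198A, 26.8 in 1202, 18.2 in 1203, and 21.6 in 1206, so that 1198A exceeded every other library while the other 4 lay near the controls. The difference between slow-growing PNs and controls was 0.85 (SE 0.50, edgeR adjusted p = 0.275), and without 1198A it was 0.26. Over all PNs the difference was 1.0 (SE 0.40, edgeR adjusted p = 0.0760), and fast- and slow-growing PNs differed by 0.20 (SE 0.37), and by 0.79 without 1198A.

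*Mcl1*, whose protein is short-lived and needed by many cell types, had the highest level per length of the family and varied within each group. It was 170 CPM in DRG3, 272 in DRG4, and 271 in DRG5. Slow-growing PNs had 189.8 CPM in 1079, 256 in 1198A, 158 in 1202, 124 in 1203, and 160.3 in 1206, and fast-growing PNs had between 168 and 456 CPM with a median of 265. All 3 groups overlapped. The log2 fold change was -0.02 in PNs (SE 0.33, edgeR adjusted p = 0.976), -0.47 in slow-growing PNs (SE 0.27, adjusted p = 0.270), and 0.20 in fast-growing PNs (SE 0.32, adjusted p = 0.682), each against controls. Fast-growing PNs exceeded slow-growing PNs by 0.67 (SE 0.26), with 1191 the highest of all libraries.

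**Figure D3:**
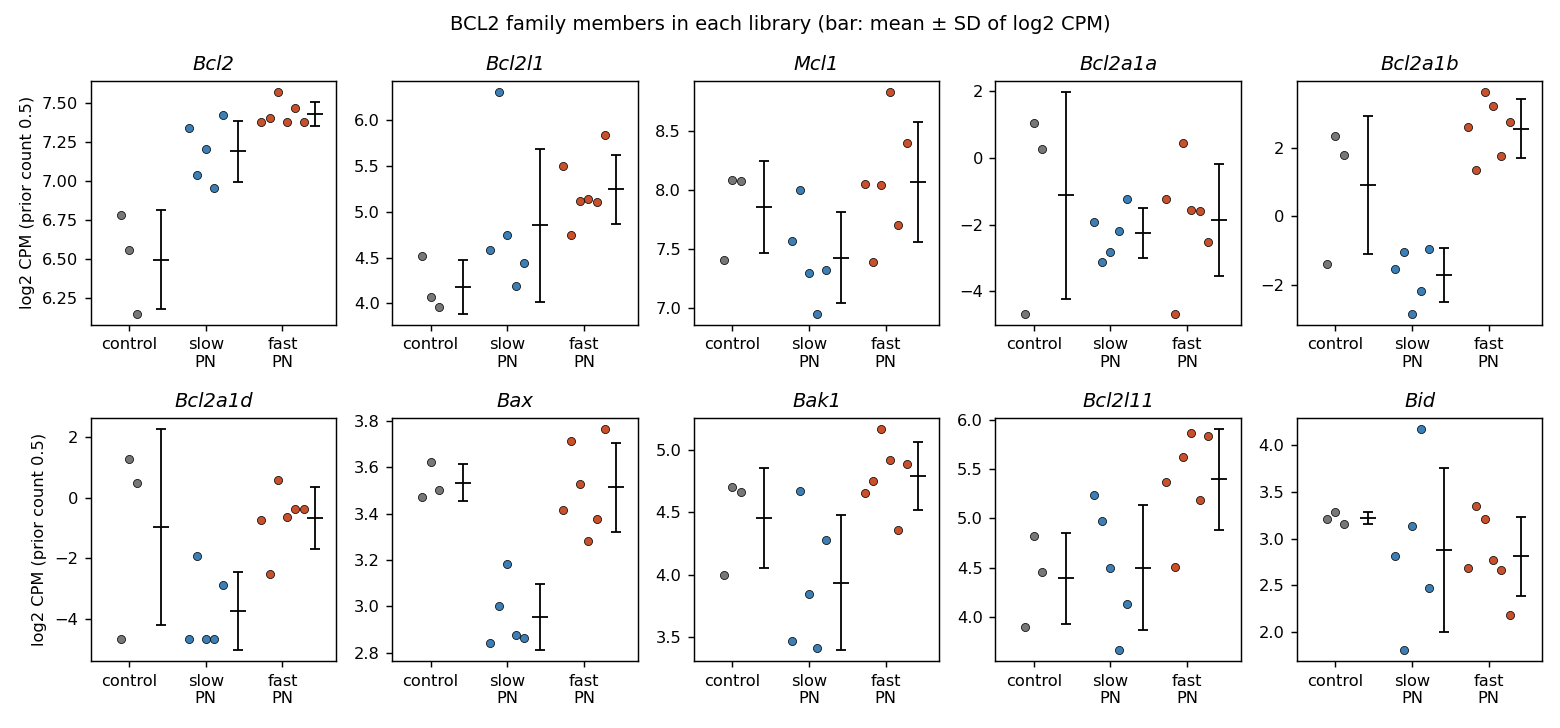
log2 CPM (y axis, prior count 0.5, a separate range in each panel) of the 10 members in each library (points) of the 3 groups (x axis), with the mean ± SD of log2 CPM beside the points. All PNs lie above the controls in *Bcl2*, and all slow-growing PNs lie below both other groups in *Bax*.

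The pore-forming genes were lowest in slow-growing PNs. *Bax* was 11.1 CPM in DRG3, 12.3 in DRG4, and 11.3 in DRG5. It was 7.14 CPM in 1079, 7.96 in 1198A, 9.03 in 1202, 7.30 in 1203, and 7.23 in 1206, and between 9.68 and 13.6 CPM with a median of 11.1 in fast-growing PNs. Every slow-growing PN thus lay below every control and every fast-growing PN. The log2 fold change between slow-growing PNs and controls was -0.62 (SE 0.18, edgeR adjusted p = 0.0627) and did not pass the threshold. Fast-growing PNs did not stand apart from controls in *Bax* (-0.07, SE 0.16, adjusted p = 0.798) and exceeded slow-growing PNs by 0.57 (SE 0.14). The exons of *Bax* overlap *Gm45808* on the same strand, which has no row in the table.

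*Bak1* was also lowest on average in slow-growing PNs, with more spread, and its mean was highest in fast-growing PNs. It was 15.9, 26.0, and 25.2 CPM in DRG3, DRG4, and DRG5. Slow-growing PNs had 11.01 CPM in 1079, 25.5 in 1198A, 14.3 in 1202, 10.6 in 1203, and 19.4 in 1206, and fast-growing PNs had between 20.5 and 35.9 CPM with a median of 28.2. Slow-growing 1198A reached the level of DRG4 and DRG5, and DRG3 that of the slow-growing PNs. *Bak1* was not called against controls in slow-growing PNs (-0.51, SE 0.33, edgeR adjusted p = 0.314) or fast-growing PNs (0.27, SE 0.23, adjusted p = 0.411), and fast-growing PNs exceeded slow-growing PNs by 0.79 (SE 0.24). The genes closest to *Bak1* over the 14 libraries were *Emp3* and the lysosomal genes *Hexa* and *Grn* (0.18, 0.23, and 0.23 SD). An exon of *Bak1* overlaps *Ggnbp1* on the opposite strand, and whether the counting used strand is not given in the sources used here.

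Among the BH3-only genes, *Bcl2l11* was highest in fast-growing PNs. It was 14.9, 28.2, and 22.0 CPM in DRG3, DRG4, and DRG5. Slow-growing PNs had 37.8 CPM in 1079, 31.5 in 1198A, 22.5 in 1202, 12.6 in 1203, and 17.4 in 1206, and fast-growing PNs had between 22.6 and 58.6 CPM with a median of 45.2. Only 1071 of the fast-growing PNs lay within the range of the controls. The log2 fold change against controls was 0.98 in fast-growing PNs (SE 0.33, edgeR adjusted p = 0.0503), which did not pass the threshold. It was called without 1071 (1.12, adjusted p = 0.0119) and with DESeq2 (0.97, adjusted p = 0.0188), and with muscle and fat scores as covariates its direction turned (-0.24, adjusted p = 0.986). It was 0.13 in slow-growing PNs (SE 0.38, adjusted p = 0.832) and 0.70 over all PNs (SE 0.42, adjusted p = 0.233), and fast-growing PNs exceeded slow-growing PNs by 0.86 (SE 0.31).

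*Bid* was not called in any comparison. It was 9.24, 9.70, and 8.87 CPM in DRG3, DRG4, and DRG5, and between 4.498 and 10.1 CPM with a median of 6.61 in fast-growing PNs. Slow-growing PNs had 6.99 CPM in 1079, 3.46 in 1198A, 8.73 in 1202, 18.1 in 1203, and 5.49 in 1206, so that both the lowest and the highest library were slow growing. The log2 fold change against controls was -0.25 in PNs (SE 0.37, edgeR adjusted p = 0.653), -0.17 in slow-growing PNs (SE 0.47, adjusted p = 0.818), and -0.42 in fast-growing PNs (SE 0.25, adjusted p = 0.236). An exon of *Bid* overlaps *Bcl2l13* on the opposite strand.

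Counted over the family, few members passed the test. Against controls, 1 of 10 tested members (*Bcl2*) was higher in PNs and none was lower, where 26.3% of the 16283 genes tested were called (12.9% higher and 13.4% lower). In slow-growing PNs 7 members were tested, since the A1 copies fell below the expression filter, and edgeR called 0 of them, with 2 at an unadjusted p under 0.05, where 11.3% of 15714 genes were called (4.12% higher and 7.13% lower). DESeq2 called 2 (*Bcl2* higher and *Bax* lower), where it called 3529 of 15714 genes, and limma-voom 0, where it called 1844. In fast-growing PNs 2 of 10 were higher (*Bcl2* and *Bcl2l1*) and none was lower, where 31.4% of 16037 genes were called (14.8% higher and 16.7% lower). With edgeR, the shares called in either direction among members were below those among all genes in each of these comparisons, which use the same 3 controls. In fast-growing PNs the share called higher, 2 of 10, was above the 14.8% of all genes. A single gene moves such shares widely, and the 10 tested members include the 3 A1 copies, so no meaning is read from these differences. Between fast- and slow-growing PNs 1 of 8 tested members (*Bcl2a1b*) was called, where 1.27% of 15465 genes were called (0.802% higher and 0.466% lower), and no meaning is read from this count because the members were chosen on this comparison. The shares over all genes themselves moved with the libraries. Without a single library the genes called between fast- and slow-growing PNs, 196 in all libraries, numbered 2 (without 1079, 1202, 1206, 1053, or 1191) to 1194 (without 1198A), and those called in slow-growing PNs against controls, 1769, numbered 599 (without DRG5) to 2454 (without DRG3). The median log2 fold change of the tested members against controls was 0.23 for fast-growing PNs, -0.17 for slow-growing PNs, and -0.00023 for all PNs, beside 0.019, 0.038, and 0.095 over all genes tested.

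**Figure D4:**
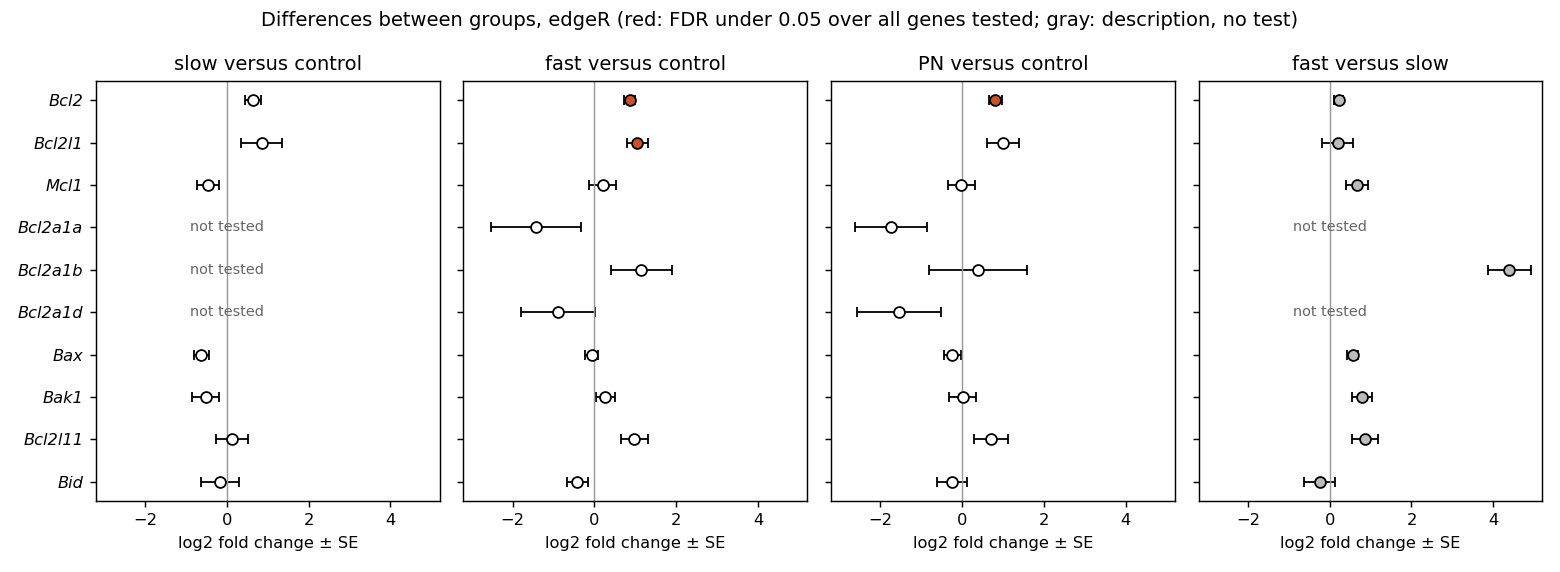
log2 fold change ± SE (x axis, edgeR) of each member (y axis) in 4 comparisons, with red points at an adjusted p under 0.05 over all genes tested and gray points, shown without a test, between fast- and slow-growing PNs. *Bcl2* is red in fast-growing PNs and in all PNs against controls, and *Bcl2l1* in fast-growing PNs.

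Some members separated the groups without overlap. *Bcl2* lay above all controls in every PN (8.19% of the genes tested did so), *Bcl2* lay above and *Bax* below all controls in every slow-growing PN (11.1% and 12.3% of genes), and *Bcl2* and *Bcl2l1* lay above all controls in every fast-growing PN (17.3% of genes). *Bcl2a1b* and *Bax* were higher in every fast- than in every slow-growing PN, as were 2.1% of the genes tested.

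The balance between survival and death genes was described by ratios of counts within each library, which do not depend on library scaling. The ratio of *Bcl2* to *Bax* reads was 9.95 in DRG3, 7.68 in DRG4, and 6.29 in DRG5. It was 22.7 in 1079, 16.5 in 1198A, 16.4 in 1202, 17.0 in 1203, and 23.7 in 1206, and between 12.3 and 17.2 with a median of 16.1 in fast-growing PNs. Every PN therefore had a higher *Bcl2* to *Bax* ratio than every control, and *Bcl2* alone also lay above all controls in every PN. The ratio of *Mcl1* to *Bcl2l11* reads was 11.2 ± 1.37 in controls (SD, n = 3), 7.84 ± 1.91 in slow-growing PNs (n = 5), and 6.44 ± 0.969 in fast-growing PNs (n = 6), and all fast-growing PNs, at 5.38 to 7.78, lay below the controls, at 9.67 to 12.4. The ratio of *Bcl2l1* to *Bax* reads was 1.36 to 2.06 in controls, 2.49 to 9.96 in slow-growing PNs, and 2.05 to 4.28 in fast-growing PNs. The ratio of *Bcl2* to *Bcl2l11* reads did not separate the groups, at 4.66 ± 2.37 in controls (n = 3), 6.95 ± 2.82 in slow-growing PNs (n = 5), and 4.33 ± 1.72 in fast-growing PNs (n = 6). The ratio of *Bcl2* to *Mcl1* reads overlapped between groups, at 0.262 to 0.646 in controls, 0.514 to 1.07 in slow-growing PNs, and 0.365 to 1.01 in fast-growing PNs. All of these ratios were chosen after the values of the genes had been seen and were not tested. Since the genes differ in length, only changes of a ratio between libraries can be read. How many other pairs of genes separate the groups was not counted, and in whole tissue the reads of a pair can come from different cells.

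Per length of the longest transcript, the order of the mean levels over the 14 libraries was *Mcl1* (69.0 ± 25.6 CPM per kb, SD), *Bcl2* (20.4 ± 4.87), *Bcl2l1* (12.8 ± 6.91), *Bak1* (9.46 ± 3.17), *Bax* (9.22 ± 1.97), *Bcl2l11* (6.41 ± 2.99), *Bcl2a1b* (4.395 ± 4.68), *Bid* (3.37 ± 1.45), *Bcl2a1d* (0.689 ± 0.830), and *Bcl2a1a* (0.576 ± 0.734). *Mcl1* stood above *Bcl2* by more than their spread. From *Bcl2* down to *Bid*, the ranges of mean ± SD of neighbors overlapped, and *Bcl2a1d* and *Bcl2a1a* lay below *Bid*. The order was not the same in every group. *Bak1* stood above *Bax* only in fast-growing PNs, as did *Bcl2a1b* above *Bid*. In fast-growing PNs alone, *Bcl2a1b* reached 8.17 ± 4.47 CPM per kb (SD, n = 6), a level near that of *Bcl2l11* (8.78 ± 2.71) and *Bax* (10.4 ± 1.41) in the same libraries, against 0.372 ± 0.202 in slow-growing PNs (n = 5).

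The genes with profiles most like that of each member were found by a single measure. Over 14 libraries, the 5 closest to *Bcl2a1b* by the mean absolute difference of standardized log2 CPM were *Ccl12*, a chemokine of monocytes (0.22 SD), *Pik3ap1*, a signaling adaptor of B cells and macrophages (0.24), the RNA sensor gene *Ddx58* (0.25), the interferon-induced protease gene *Usp18* (0.25), and *Phf11b* (0.26). *Ccl12* was 7.02 ± 5.42 CPM in controls (SD, n = 3), 1.499 ± 1.31 in slow-growing PNs (n = 5), and 14.2 ± 6.58 in fast-growing PNs (n = 6). Those closest to *Bcl2a1d* were *Siglech*, a marker of plasmacytoid dendritic cells and microglia, *H2-M3*, and *Klri1* (0.22 SD each), and those closest to *Bcl2a1a* were the BH3-only gene *Pmaip1* (0.27), *Tgtp2* (0.35), and the T cell kinase gene *Zap70* (0.36). For *Mcl1* they were *Clec4a1*, *Snx5*, and *Rab43* (0.25, 0.25, and 0.26), for *Bcl2l1* *Sec14l1*, *Rarg*, and *Jade2* (0.25, 0.27, and 0.28), and for *Bcl2l11* *Casp2*, *Arhgef6*, and *Arnt* (0.26, 0.27, and 0.27). The closest to *Bax* were *Ppib*, *Tssc4*, and *Cst3* (0.34, 0.43, and 0.43) and to *Bid* *Grb2*, *Hspb11*, and *Ogfod2* (0.36, 0.36, and 0.37). Among the members themselves, the closest pair was *Bcl2a1b* and *Bcl2a1d* (0.39), followed by *Bcl2a1b* and *Bak1* (0.40) and *Mcl1* and *Bak1* (0.45). Low-count genes have few distinct values, and all points share library depth and tissue makeup.

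The rest of the apoptosis machinery was described with 62 genes in 8 lists. Against controls, 5 of 58 tested genes rose and 5 fell in PNs, 2 of 58 rose and 3 fell in slow-growing PNs, and 5 of 58 rose and 13 fell in fast-growing PNs. The shares of all genes called, given above, are higher than these in PNs and in slow-growing PNs and of similar size in fast-growing PNs. The 4 genes below the filter in all comparisons were *Bcl2l10*, *Bik*, *Bbc3*, and *Fasl*, of which *Bbc3*, which encodes PUMA, had at most 11 reads in a library.

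*Bcl2l2*, which encodes the survival protein BCL-W, rose in PNs beside *Bcl2*. It was 68.0, 41.5, and 47.4 CPM in DRG3, DRG4, and DRG5, between 74.4 and 156 CPM in slow-growing PNs, and between 81.1 and 129 CPM in fast-growing PNs, so that all PNs lay above all controls. The log2 fold change was 1.05 in PNs (SE 0.23, edgeR adjusted p = 0.00470), 1.13 in slow-growing PNs (SE 0.26, adjusted p = 0.0297), and 0.89 in fast-growing PNs (SE 0.20, adjusted p = 0.00754). The call in slow-growing PNs was lost in 5 of 8 fits that left out a library.

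Of the 9 other effector and BH3-only genes, *Hrk*, a BH3-only gene of neurons, rose in PNs by 2.22 (SE 0.53, edgeR adjusted p = 0.00751, and 0.0508 without DRG4), from 0.774 ± 0.332 CPM in controls (SD, n = 3) to 3.58 ± 1.75 in slow-growing PNs (n = 5) and 3.71 ± 2.32 in fast-growing PNs (n = 6). Its calls were also lost without DRG4 or DRG5 in fast-growing PNs and in 5 of 8 fits without a library in slow-growing PNs. *Bmf*, a BH3-only gene that, like *Bcl2l11*, is held at the cytoskeleton in healthy cells, rose in fast-growing PNs by 1.12 (SE 0.29, edgeR adjusted p = 0.0165), a call lost without DRG3 or DRG4. *Bnip3*, a mitophagy gene induced by low oxygen, fell in fast-growing PNs by 1.27 on the log2 scale (SE 0.31, edgeR adjusted p = 0.0127, and 0.100 without DRG5). *Bok*, an effector related to *Bax* and *Bak1*, was 16.6, 11.4, and 10.3 CPM in DRG3, DRG4, and DRG5, between 7.48 and 19.2 CPM in slow-growing PNs, and between 5.05 and 9.32 CPM in fast-growing PNs. It fell in fast-growing PNs against controls by 0.97 on the log2 scale (SE 0.23, edgeR adjusted p = 0.00982). Between fast- and slow-growing PNs it was the only gene called of 57 tested in the 8 lists (-1.15, SE 0.24, edgeR adjusted p = 0.0484), where 1.27% of 15465 genes were called. That call was lost in 5 of 8 alternatives and in 8 of 11 fits without a library. The order of *Bok* was thus the reverse of that of *Bax* and *Bak1*, which were higher in fast- than in slow-growing PNs. *Bcl2l13*, a BCL2-like protein of mitochondria, fell in fast-growing PNs by 0.71 (SE 0.18, edgeR adjusted p = 0.0133, and 0.107 without DRG5).

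Downstream of the membrane, 4 of 13 caspase, apoptosome, and released-factor genes, among them *Cycs*, *Endog*, and *Aifm1*, fell in PNs and in fast-growing PNs against controls, 2 (*Cycs* and *Endog*) fell in slow-growing PNs, and none rose. The call of *Endog* in slow-growing PNs was lost without DRG4, DRG5, 1079, or 1202 and in 3 of 8 alternatives. Of all genes tested, 13.4%, 16.7%, and 7.13% fell in these comparisons. *Diablo*, another factor released from mitochondria, differed by 0.32 in PNs (SE 0.42, edgeR adjusted p = 0.606). *Cycs*, the gene of cytochrome c, was 553, 537, and 649 CPM in DRG3, DRG4, and DRG5, 166 CPM in 1079, 250.0 in 1198A, 301 in 1202, 249 in 1203, and 155 in 1206, and between 60.5 and 173 CPM in fast-growing PNs, with no overlap between PNs and controls. It fell by 1.84 on the log2 scale in PNs (SE 0.37, edgeR adjusted p = 0.00221), by 1.41 in slow-growing PNs (SE 0.25, adjusted p = 0.00934), and by 2.46 in fast-growing PNs (SE 0.29, adjusted p = 0.000281). *Endog*, a mitochondrial nuclease, fell by 1.98 (SE 0.48, adjusted p = 0.00783) in PNs, and *Aifm1*, the apoptosis-inducing factor, by 1.04 (SE 0.25, adjusted p = 0.00845, and 0.0770 without DRG5). The 3 channel genes of the outer membrane, *Vdac1*, *Vdac2*, and *Vdac3*, fell in fast-growing PNs by 0.77, 0.54, and 0.67 (edgeR adjusted p = 0.0380, 0.0144, and 0.0140), and these calls were lost in 5, 2, and 3 of 9 fits without a library. Cytochrome c and VDAC also serve respiration in every tissue that is rich in mitochondria, and the controls held most transcripts of such tissue: 14 skeletal muscle markers summed to 3901 to 15944 CPM in controls, 19.9 to 3615 in slow-growing PNs, and 84.0 to 2417 in fast-growing PNs, and 11 fat markers to 3618 to 5361, 14.05 to 2477, and 26.7 to 277 CPM. The part of muscle and fat in these falls was not tested, and the groups and these tissues cannot be told apart in the fit, since with both scores as covariates no gene of the 8 lists was called in fast-growing PNs (0 of 58, and 0 of 16037 genes) and the values of *Aifm1*, *Bok*, *Bnip3*, *Bcl2l13*, *Hrk*, *Vdac1*, and *Vdac3* changed sign. In the fits with these covariates *Cycs* differed by -0.31 in PNs (edgeR adjusted p = 0.810) and by -1.04 in fast-growing PNs (adjusted p = 0.944). Some other values in fast-growing PNs kept their size over all 8 alternatives, covariates included, though not their calls. *Bcl2l2* ran from 0.88 to 1.47, *Fas* from -1.83 to -1.62, and *Endog* from -3.63 to -2.26. Over all PNs, *Bcl2l2* ran from 0.998 to 1.39, but *Endog* from -2.18 to -0.80 and *Fas* from -1.39 to 0.38. In slow-growing PNs *Fas*, not called in the main fit, ran from -0.88 to 0.75.

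**Figure D5:**
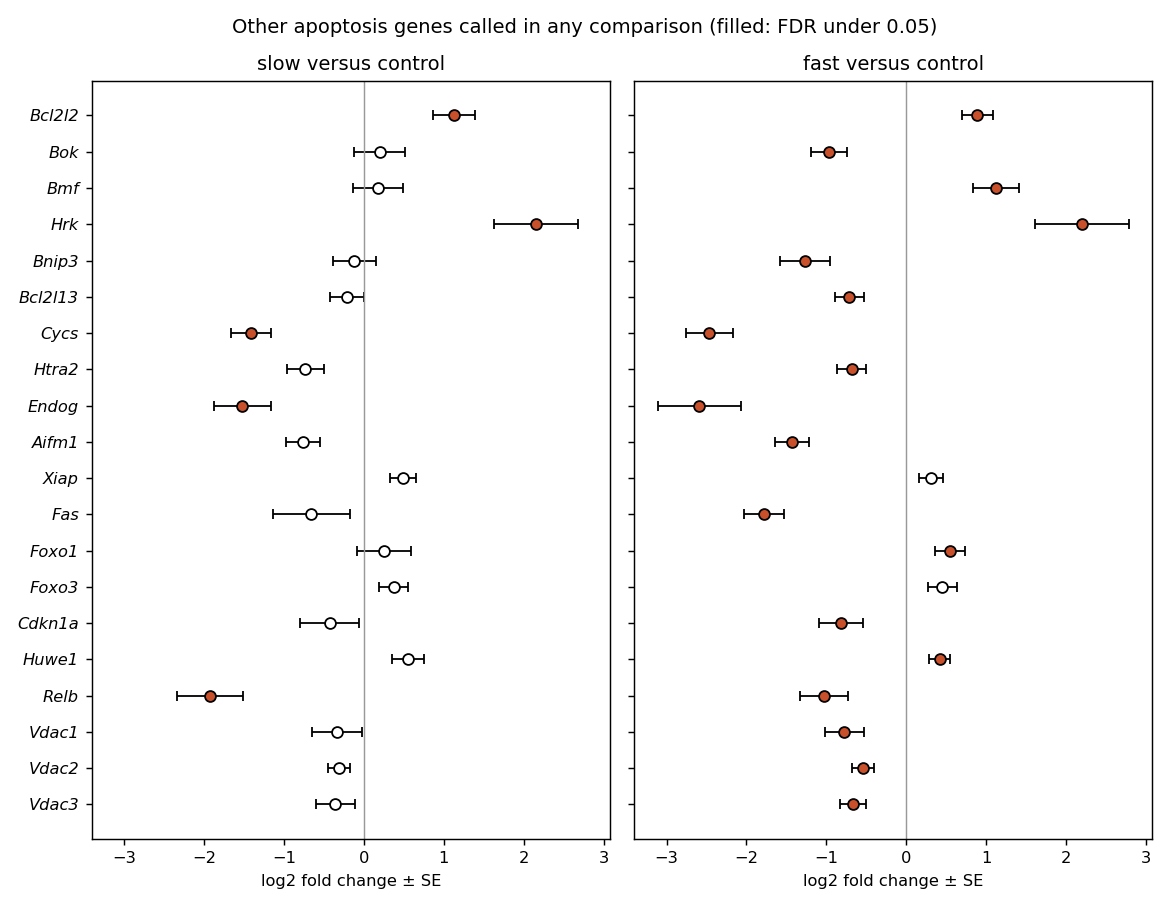
log2 fold change ± SE (x axis, edgeR) of the 20 apoptosis genes outside the 10 members that were called in any comparison (y axis), in slow-growing and fast-growing PNs against controls, with filled points at an adjusted p under 0.05. *Bcl2l2* and *Hrk* lie to the right of 0 and *Cycs*, *Endog*, and *Relb* to the left in both panels, all of them filled.

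Upstream genes moved in both directions. *Fas*, the death receptor whose signal runs through BID in some cells, was 12.9, 13.02, and 14.99 CPM in DRG3, DRG4, and DRG5 and fell in fast-growing PNs to between 3.11 and 6.20 CPM, by 1.78 on the log2 scale (SE 0.25, edgeR adjusted p = 0.000684). Of 7 tested death receptor genes, 1 fell, where 16.7% of all genes did. Of 14 transcription factor and ubiquitin enzyme genes, *Foxo3*, a factor known to induce *Bcl2l11*, rose in PNs by 0.46 (SE 0.16, edgeR adjusted p = 0.0430), and *Foxo1* in fast-growing PNs by 0.55 (SE 0.19, adjusted p = 0.0479). The call of *Foxo3* was lost in 3 of 8 alternatives and in 9 of 14 fits without a library, and that of *Foxo1* in 5 of 8 and 5 of 9. *Huwe1*, a ubiquitin ligase for MCL1, rose in PNs by 0.53 (SE 0.14, edgeR adjusted p = 0.0157), a call lost without DRG4 or DRG5 and in 2 of 8 alternatives, and in fast-growing PNs by 0.42 (SE 0.14, adjusted p = 0.0420), a call lost in 7 of 9 fits without a library. *Relb*, an NF-kappaB subunit, fell in PNs by 1.32 (SE 0.36, edgeR adjusted p = 0.0159), in slow-growing PNs by 1.93 (SE 0.41, edgeR adjusted p = 0.0217) and in fast-growing PNs by 1.03 (SE 0.30, adjusted p = 0.0253). All 3 calls were lost without DRG4 or DRG5, that in slow-growing PNs also without 1079 and that in fast-growing PNs also without 1053. *Nfkb1*, *Nfkb2*, *Rel*, and *Rela* did not pass in any comparison, nor did *Trp53* or *Mdm2*, while the p53 target *Cdkn1a* fell in fast-growing PNs by 0.82 (SE 0.27, edgeR adjusted p = 0.0461), a call lost in 5 of 8 alternatives and in 7 of 9 fits without a library. Of 9 caspase inhibitor genes, 1 (*Xiap*) rose in PNs, where 12.9% of all genes did, by 0.44 (SE 0.14, edgeR adjusted p = 0.0333). Its call was lost in 3 of 8 alternatives and without DRG4, DRG5, or 1214.

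Depth and library identity bear on all of these values. Libraries held between 9596773 and 17594164 counts on genes, and the median was highest for fast-growing PNs (14459516), then slow-growing PNs (11707116), then controls (10627393). *Nf1* itself was 131 to 229 CPM in controls and 224 to 293 CPM in PNs, and gene counts do not separate the floxed exons, so it could not check the genotype. Sensory neuron markers were present in all controls (1652 to 6080 CPM over 11 genes) and in PNs, except for 26.5 CPM in fast-growing 1191. The sources used here do not say whether controls and PNs were prepared together, so tissue and preparation cannot be told apart.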

How the data were processed

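RNA was isolated from frozen PNs and control DRGs/nerves, and cDNA was amplified with Nugen's Ovation v2 kit. Per the labels and the study's methods, the authors called bases with CASAVA 1.4, aligned reads to mm10 with TopHat2 2.0.9, and counted them per gene with featureCounts 1.5.2. The values used are these deposited counts, whole numbers without normalization. A deposited table of log2 values, normalized by the authors with edgeR 3.16.5, was not used. Settings for strand and for reads that fit several genes are not given in the sources used here.

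The counts were analysed in R 4.3.3 with edgeR 4.0.16. Only libraries of a comparison entered its fit, genes were kept by filterByExpr, libraries were scaled by TMM, and the quasi-likelihood test was run without covariates, at a Benjamini-Hochberg adjusted p under 0.05 over all genes tested. The SE is the log2 fold change divided by the root of the F statistic. The 10 members, the 8 pathway lists, and the 14 marker lists were chosen with earlier results of these data known, and no p is given for members between fast- and slow-growing PNs. Some genes of these lists are not reported here and enter no list count or sum. Of each pathway list, called genes with the largest changes are named, at most 3 per direction and comparison. Nothing says whether libraries came from separate batches. Each library has its own number in its label and was taken as a separate mouse, so p-values measure the spread between libraries. Counts of 9596773 to 17594164 per library set the precision, and 3 counts were taken as the floor. The fits were tested on simulated data. Alternatives used DESeq2 1.42.0, limma 3.58.1, size factors in place of TMM, no filter, all 14 libraries in a single fit, muscle and fat scores (mean log2(CPM + 1)) as covariates, removal of length and GC trends, summed A1 copies, and leaving out each library. Sequences came from GENCODE and RefSeq, and plots were made in Python 3.11.15 with matplotlib 3.10.9.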

Additional observations from a re-analysis of the deposited data

Results flagged for a closer look

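In slow-growing PNs, the library 1198A stood far from the other 4 in *Bcl2l1* (79.3 CPM) and in the ratio of *Bcl2l1* to *Bax* reads (9.96). Library 1191 stood far below the other fast-growing PNs in the sum of sensory neuron markers (26.5 CPM). Library 1206 stood far above the other slow-growing PNs in pericyte and smooth muscle markers (1044 CPM), and 1071 far above the other fast-growing PNs in skeletal muscle markers (2417 CPM). These are 5 of 58 sets of libraries examined, of which chance would flag about 1 in 20.

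*Bok* was lower in fast- than in slow-growing PNs, with a log2 fold change between them of -1.15 (edgeR adjusted p = 0.0484), a call lost in 5 of 8 alternatives and in 8 of 11 fits without a library. It was 1 of 57 tested genes of the 8 lists, where 1.27% of 15465 genes were called.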

How the results depend on the processing

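Depth limits the A1 copies most, with 2 to 10 reads per slow-growing PN, and 3 controls limit every comparison with normal tissue. Called members numbered 2 in PNs with DESeq2 or with length and GC trends removed (*Bcl2* and *Bcl2l1* higher), 2 with all 14 libraries in a single fit (*Bcl2* higher and *Bcl2a1d* lower by -2.42, edgeR adjusted p = 0.0470), and 0 with muscle and fat covariates. In slow-growing PNs they numbered 2 with DESeq2, 1 without a filter, 4 with all libraries in a single fit (*Bcl2* higher, with *Bax*, *Bcl2a1b*, and *Bcl2a1d* lower), and 1 with A1 copies summed. The A1 copies enter these counts only through libraries in which they are high, and their low levels in slow-growing PNs entered the choice of genes, so these counts are no support for them. In fast-growing PNs they numbered 3 with DESeq2 (*Bcl2l11* in addition), 1 with all libraries in a single fit, and 0 with covariates, and between fast- and slow-growing PNs 3 with DESeq2, 2 with all libraries, and 0 with limma-voom or covariates. Of all genes, DESeq2 called 5170 of 16283 in PNs, 3529 of 15714 in slow-growing PNs, and 5868 of 16037 in fast-growing PNs. The single fit called 4792, 3280, and 4801 of 16283, and covariates left 273, 0, and 0. Without length and GC trends 3666 were called in PNs. In slow-growing PNs no filter gave 1561 of 21258 and summed A1 copies 1770 of 15715. Between fast- and slow-growing PNs 1592 of 15465 were called with DESeq2, 423 with all libraries, 34 with limma-voom, and 0 with covariates. The summed A1 copies differed between slow-growing PNs and controls by -2.29 with limma-voom and -3.58 with covariates, and their difference between fast- and slow-growing PNs was 3.13 with covariates. Over 6 alternatives their difference from controls ran from -1.84 to 1.33 in fast-growing PNs, so that its direction turned. Over all PNs it ran from -6.31 to -0.14.

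Called genes of the 8 lists numbered with covariates 1 in PNs and 0 in either slow- or fast-growing PNs, and 10 in slow-growing PNs with DESeq2 or with all libraries in a single fit. Between fast- and slow-growing PNs they numbered 11 with DESeq2, 3 with all libraries, and 0 with DESeq2 size factors, limma-voom, no filter, covariates, or length and GC trends removed. Of all genes, 130 of 15465 were called there with DESeq2 size factors, 137 of 20605 with no filter, and 238 with these trends removed. Counts over all genes for the other settings are given above. With covariates these values, all called in the main fit, reversed: *Bcl2l1* (-0.73), *Aifm1* (0.32), *Bok* (0.14), *Hrk* (-0.35), *Bnip3* (0.35), *Bcl2l13* (0.39), *Vdac1* (0.026), and *Vdac3* (0.062) in fast-growing PNs, and *Aifm1* (0.15) in PNs. Values not called in the main fit also turned, such as *Bcl2l11* in fast-growing PNs (-0.24). The cause was not tested.

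With each library left out, called members ranged from 1 to 2 in PNs, 0 to 3 in slow-growing PNs, 1 to 3 in fast-growing PNs, and 0 to 3 between fast- and slow-growing PNs. Without 1203, *Bcl2l1* was also called in PNs. The highest count in slow-growing PNs was without DRG3, the control low in A1, to which the same applies. Between fast- and slow-growing PNs 0 members were called without 1079, 1202, 1206, 1053, or 1191. Called genes of the 8 lists ranged from 4 (without DRG5) to 14 in PNs, 1 (without DRG4, DRG5, or 1079) to 10 (without DRG3) in slow-growing PNs, 7 (without DRG5) to 18 in fast-growing PNs, and 0 to 7 (without 1198A) between fast- and slow-growing PNs. The summed A1 value in slow-growing PNs ranged from -3.78 to -2.47. Levels without TMM factors stayed within the SD of each group for every member and marker list. No paired analysis was possible because the labels give the groups no shared replicate numbers.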
